A study of Drosophila melanogaster with 2 samples.

Results

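The 10 genes described here encode core components of the Notch pathway: the receptor N, its ligands Dl and Ser, the glycosyltransferase fng, the protease kuz, the ubiquitin ligase neur, the inhibitor numb and the nuclear proteins Su(H), H and mam. They were taken from a list of gene names by their place in the pathway, a list drawn up with earlier results of these data known, and all 10 were found among the 13945 protein-coding genes of the Ensembl annotation, where Dl is listed as Delta. The data are chromatin immunoprecipitation followed by sequencing (ChIP-seq) from whole Drosophila melanogaster embryos of both sexes, 0 to 24 h old. All embryos came from 1 transgenic line that stably expresses CG4854, a zinc finger protein, with eGFP at its C-terminal end, and the fusion was precipitated with an antibody to GFP. The 2 samples, biological replicates 2 and 3, make up 1 group, so no condition could be compared with another and no test between groups was possible. Both replicates were called against the same control file, and neither untagged embryos nor expression data were analysed here. Whole embryos hold all embryonic cell types, so a signal cannot be assigned to a cell type.

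Notch signalling passes between touching cells. A membrane-bound ligand on one cell engages the receptor on its neighbour, proteases release the intracellular part of the receptor, and that fragment enters the nucleus, where it joins the DNA-binding protein Su(H) and the coactivator Mastermind to activate target genes. In the fly embryo the pathway is known for choosing neural precursors from proneural clusters and for giving sister cells of the nervous system and mesoderm different fates.

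The deposited peak lists gave 4 views of each gene. The pooled list and the list of each replicate held 30000 candidate peaks each, and the IDR set held 3106 peaks. IDR stands for irreproducible discovery rate, which scores how alike the replicates rank a peak, and the set holds the peaks the authors kept by it. The IDR peaks were the 3106 highest entries of the pooled list. Each peak has a summit, its highest point, and a signal, which is the authors' score in the scale of their peak caller. Signal was used to rank peaks within a list, with rank 1 the strongest, and at matched summits the replicates' signals are also given as a ratio, although each list has its own scale and the lists were not put on a common one. The pooled signal of the IDR peaks ran from 95.2 to 1775.6 with a median of 146.0. Read depth is unknown, so no counting error could be given.

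The sequences under the strongest IDR peaks of N, neur and numb are shown because these peaks ranked highest after that of mam, and because they stand for both kinds of position, an intron for N and neur and a start site for numb. Each is the whole peak on dm6, plus strand, 5′ to 3′, read from the Release 6 genome, and capitals mark the summit with 10 bases on either side. The N peak lies at chrX:3162383-3162675, in intron 5 of 8. The neur peak lies at chr3R:9031938-9032149, in intron 1 of 2. The numb peak lies at chr2L:9449544-9449751 and covers the region just upstream of the second start site of the gene.
N intron peak: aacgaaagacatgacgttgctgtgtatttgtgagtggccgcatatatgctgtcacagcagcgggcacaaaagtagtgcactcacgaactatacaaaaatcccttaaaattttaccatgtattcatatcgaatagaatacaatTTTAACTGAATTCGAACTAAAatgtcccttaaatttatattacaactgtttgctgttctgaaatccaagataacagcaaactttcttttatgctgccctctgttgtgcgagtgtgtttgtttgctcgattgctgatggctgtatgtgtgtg
neur intron peak: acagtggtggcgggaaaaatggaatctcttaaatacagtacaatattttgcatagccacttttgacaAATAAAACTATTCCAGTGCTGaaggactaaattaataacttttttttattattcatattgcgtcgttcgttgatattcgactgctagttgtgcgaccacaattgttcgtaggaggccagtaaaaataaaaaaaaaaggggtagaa
numb promoter peak: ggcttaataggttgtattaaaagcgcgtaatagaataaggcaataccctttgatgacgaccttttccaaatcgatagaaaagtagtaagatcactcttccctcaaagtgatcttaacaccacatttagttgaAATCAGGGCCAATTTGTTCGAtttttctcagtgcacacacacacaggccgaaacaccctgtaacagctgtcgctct
The N and neur summits lie in AT-rich DNA, with 24.8% and 25.7% G or C within 50 bp of the summit, against 43.6% at the numb summit. Over whole peaks the G and C share was 37.9% for N, 34.4% for neur and 40.9% for numb, so in N and neur the summit was richer in A and T than the peak around it.

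Of the 10 genes, 4 (kuz, neur, numb and mam) carried an IDR summit at a promoter, that is within 500 bp of any transcription start site (TSS), against 15.8% of all protein-coding genes. IDR summits in introns were found for 3 genes (N, neur and mam), against 4.97% of all genes. Most of these genes have long introns, which offer more room for a summit: 8 of the 10 have at least 10 kb of intron. The same 3 genes were 3 of these 8, against 30.7% of the 1376 genes with at least 10 kb of intron. Within 10 kb of the gene on either side, 6 of the 10 (N, kuz, neur, numb, H and mam) had an IDR summit, against 53.0% of all genes. The intron count among long-intron genes and the count within 10 kb thus lay near the share of all genes, and the promoter count lay above it, a difference that was not tested. No IDR summit lay within 10 kb of Dl, Ser, fng or Su(H).

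The full candidate lists reached more of the 10 genes. Of the 10, 8 had a pooled candidate within 500 bp of a TSS, against 50.3% of all genes. The count was 9 in replicate 2, against 50.1% of all genes, and 10 in replicate 3, against 52.6%. Pooled candidates lay in introns of 8 members, against 18.5% of all genes. Among the 8 members with at least 10 kb of intron, 7 had one, against 73.8% of such genes. In each replicate the count was also 7 of 8, against 82.6% of such genes in replicate 2 and 73.0% in replicate 3. All 10 members had a pooled candidate within 10 kb, as did 83.9% of all genes.

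**Figure D1:**
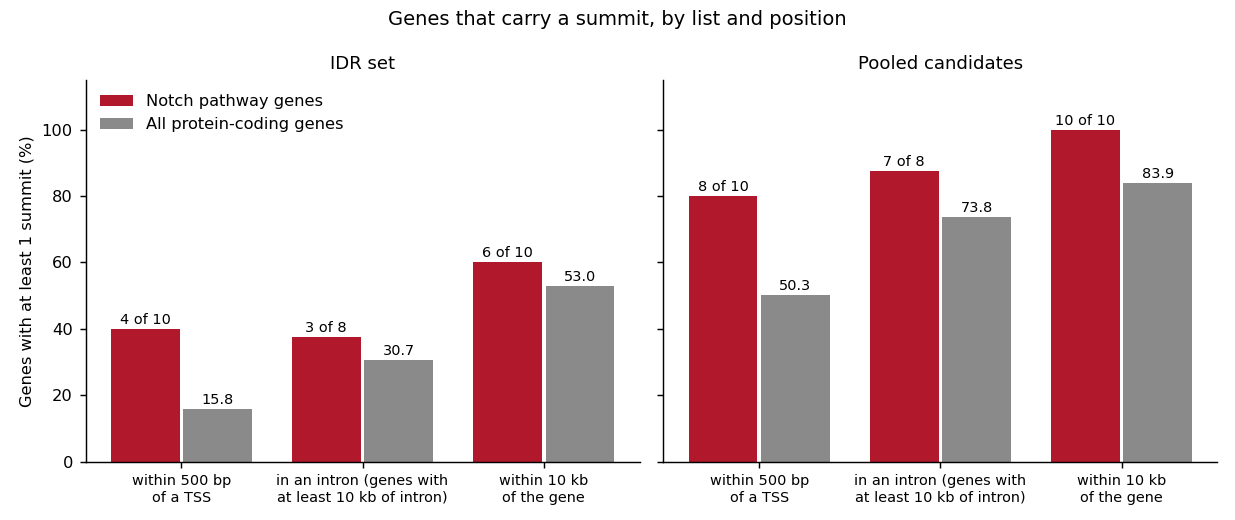
Share of genes (%) with at least 1 summit within 500 bp of a TSS, in an intron or within 10 kb, for Notch pathway genes (red, left bar of each pair) and all protein-coding genes (grey, right bar), with both intron bars limited to genes with at least 10 kb of intron, in the IDR set and in the pooled candidates. The promoter bars stand furthest apart (4 of 10 against 15.8% in the IDR set), while the intron bars of these long-intron genes (3 of 8 against 30.7%) and the 10 kb bars stand closer together.

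N, the receptor (FBgn0004647; X, 3134870 to 3172221, plus strand), carried 1 IDR summit, and it lay far inside the gene. The summit, at 3162535, was 27665 bp from the only TSS and 943 bp from the end of an intron of 4245 bp. Its signal was 257.9 in the pooled list (rank 510), 140.3 in replicate 2 (rank 493) and 118.7 in replicate 3 (rank 633). The TSS nearest to it of any other protein-coding gene was that of CG18508, 10605 bp away. This summit was thus close to no annotated start of a protein-coding gene. At the N promoter the strongest pooled candidate, 198 bp upstream of the TSS, had a signal of 56.3 and rank 6821. The replicates held entries there with signals of 24.1 (rank 10345, replicate 2) and 34.0 (rank 6480, replicate 3), outside the first 3106 of either list. Within 10 kb the pooled list held 14 candidates for N, 10 of them in introns.

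Dl and Ser encode the membrane-bound ligands, and neither had an IDR summit within 10 kb. Dl (FBgn0000463; 3R, 19302731 to 19326217, minus strand) had 1 promoter candidate, 38 bp downstream of its TSS, with a pooled signal of 54.7 (rank 7086). It had 22.3 in replicate 2 (rank 11939) and 31.8 in replicate 3 (rank 7280). The other 7 pooled candidates of Dl lay in introns, near the end of the gene or beyond it, and the best of its intron candidates had rank 15348. Ser (FBgn0004197; 3R, 27172090 to 27194267, minus strand) was the emptiest of the 10 genes in the pooled list. Its only pooled candidate within 10 kb had a signal of 32.9 (rank 15122) and lay beyond the end of the gene, 442 bp from the TSS of spn-D. Replicate 2 had no entry at a Ser promoter and replicate 3 had 1, with a signal of 24.6 (rank 10965), 44 bp downstream of a TSS. None of the 3 candidate lists held a summit in the 16.3 kb of Ser intron.

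fng encodes Fringe, a glycosyltransferase that adds N-acetylglucosamine to O-linked fucose on the receptor and so changes its response to each ligand. The gene (FBgn0011591; 3L, 20925891 to 20949512, minus strand) had 16 pooled candidates within 10 kb and none in the IDR set. The strongest lay 727 bp upstream of the TSS, with a pooled signal of 79.8 (rank 4072), 48.4 in replicate 2 (rank 3283) and 30.6 in replicate 3 (rank 7756). Its promoter candidate, 65 bp downstream of the TSS, had 61.3 in the pooled list (rank 6026), 36.0 in replicate 2 (rank 5285) and 22.4 in replicate 3 (rank 12761). Both of these candidates ranked higher in replicate 2 than in replicate 3, as did a weaker one 1487 bp upstream of the TSS. The reverse held for a candidate 2531 bp past the end of fng (pooled rank 4449), with ranks 5772 in replicate 2 and 4605 in replicate 3. It also held for an intron candidate (pooled rank 6011), with ranks 19064 and 6524.

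kuz encodes Kuzbanian, the ADAM metalloprotease that cuts the ligand-bound receptor outside the membrane. The gene (FBgn0259984; 2L, 13550139 to 13639411, plus strand) has the longest introns of the 10, 82.2 kb in all, yet both of its IDR summits lay at its start. The promoter summit, 72 bp downstream of the TSS, had a signal of 115.7 in the pooled list (rank 2277), 42.2 in replicate 2 (rank 4036) and 71.2 in replicate 3 (rank 1691). The other lay 898 bp upstream of the gene and 87 bp from the TSS of the neighbour B4. It had 106.6 in the pooled list (rank 2602), 38.9 in replicate 2 (rank 4640) and 70.0 in replicate 3 (rank 1752). Both lay outside the first 3106 entries of replicate 2 and inside those of replicate 3. The strongest of the 21 pooled candidates in kuz introns had a signal of 51.2 (rank 7833).

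neur encodes Neuralized, a ubiquitin ligase that promotes ligand endocytosis in the signal-sending cell. The gene (FBgn0002932; 3R, 9020348 to 9039471, minus strand) had IDR summits at both of its start sites and inside its first intron. The intron summit, at 9032015, lay 1716 bp downstream of the second TSS. It had a signal of 236.4 in the pooled list (rank 625), 121.9 in replicate 2 (rank 670) and 114.2 in replicate 3 (rank 689). The summit 142 bp upstream of the first TSS had 124.8 (rank 2019), with 59.3 in replicate 2 (rank 2387) and 66.5 in replicate 3 (rank 1953). It also lay within 500 bp of a start site of the neighbour hyx, so it cannot be assigned to neur alone. The summit 85 bp upstream of the second TSS had 119.7 (rank 2149), with 46.3 in replicate 2 (rank 3508) and 74.5 in replicate 3 (rank 1544). The intron summit thus outranked both promoter summits in each list. The remaining IDR summit lay 6163 bp past the end of neur and 37 bp from the TSS of Kcmf1. Its signal was 107.5 in the pooled list (rank 2566), 49.2 in replicate 2 (rank 3187) and 65.4 in replicate 3 (rank 2019).

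numb encodes a membrane-associated inhibitor of the receptor that is passed to 1 daughter in asymmetric divisions. The gene (FBgn0002973; 2L, 9437469 to 9464184, plus strand) has 2 start sites, and its IDR promoter summit lay at the second, internal one. That summit, 144 bp upstream, had a signal of 225.3 in the pooled list (rank 691), 142.7 in replicate 2 (rank 474) and 79.4 in replicate 3 (rank 1378). Around the first TSS the pooled list held 2 weak candidates, with signals of 34.1 (rank 14317) and 28.6 (rank 18615). An IDR summit 6110 bp upstream of numb lay 46 bp from the TSS of scat. It had 140.3 in the pooled list (rank 1647), 104.1 in replicate 2 (rank 912) and 38.7 in replicate 3 (rank 5218). Both numb summits were higher in replicate 2, the opposite of the kuz pair.

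Su(H) encodes the DNA-binding protein through which the pathway reaches its target genes. The gene (FBgn0004837; 2L, 15039488 to 15043334, plus strand) gave different answers in the pooled and the replicate lists. Replicate 2 had an entry 55 bp upstream of its TSS with a signal of 36.2 (rank 5229), and replicate 3 had one 36 bp upstream with 43.6 (rank 4227). The pooled list had none within 500 bp, and its summits nearest to these 2 entries were 3246 and 3265 bp away. Of all replicate 2 entries at that rank or stronger, 158 of 5229 (3.02%) had no pooled summit within 500 bp. In replicate 3 it was 121 of 4227 (2.86%), and among entries at or above these ranks in both replicates 38 of 2797 (1.36%). Su(H) lies at the lower end of these ranges, and the share among entries of like strength alone was not computed. The 3 pooled candidates within 10 kb all lay upstream of Su(H), the strongest with a signal of 32.9 (rank 15095), 19 bp from the TSS of yellow-c.

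H encodes Hairless, which binds Su(H) and brings corepressors to target genes when the receptor is not active. The gene (FBgn0001169; 3R, 20621938 to 20628915, plus strand) has 974 bp of intron and no IDR summit of its own. Its promoter candidate, 1 bp downstream of the TSS, had a signal of 55.7 in the pooled list (rank 6929), 25.5 in replicate 2 (rank 9400) and 34.2 in replicate 3 (rank 6396). The only IDR summit within 10 kb lay 5230 bp past the end of H and 587 bp from the TSS of Pi3K92E. It had 106.7 in the pooled list (rank 2592), 58.9 in replicate 2 (rank 2411) and 55.2 in replicate 3 (rank 2793).

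mam encodes Mastermind, the coactivator that joins Su(H) and the intracellular fragment of the receptor. The gene (FBgn0002643; 2R, 13991203 to 14060356, plus strand) held the strongest summit of the 10 genes. This summit, at 14025196 in the peak from 14024944 to 14025339, lay in an intron of 27528 bp, 14014 bp from its start and 13513 bp from its end. Its signal was 366.6 in the pooled list (rank 244), 196.4 in replicate 2 (rank 233) and 174.6 in replicate 3 (rank 261). It lay 6467 bp upstream of the nearest TSS of mam and 3424 bp from that of CG18371. Like the N summit, it thus sat away from any annotated start of a protein-coding gene. The promoter summit, 122 bp downstream of the first TSS, had 149.8 in the pooled list (rank 1481), 77.7 in replicate 2 (rank 1546) and 72.2 in replicate 3 (rank 1644). A weaker intron summit, 7249 bp downstream of that TSS, had 115.4 (rank 2284), 56.9 (rank 2536) and 53.3 (rank 3002) in the same lists. Further IDR summits 7815 and 7613 bp upstream of mam belong to overlapping peaks at different start sites of CG8067. They lay 7 and 40 bp from the nearest of these. Their pooled signals were 187.0 (rank 994) and 126.0 (rank 1989). All 5 mam summits ranked within the first 3106 of both replicate lists.

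**Figure D2:**
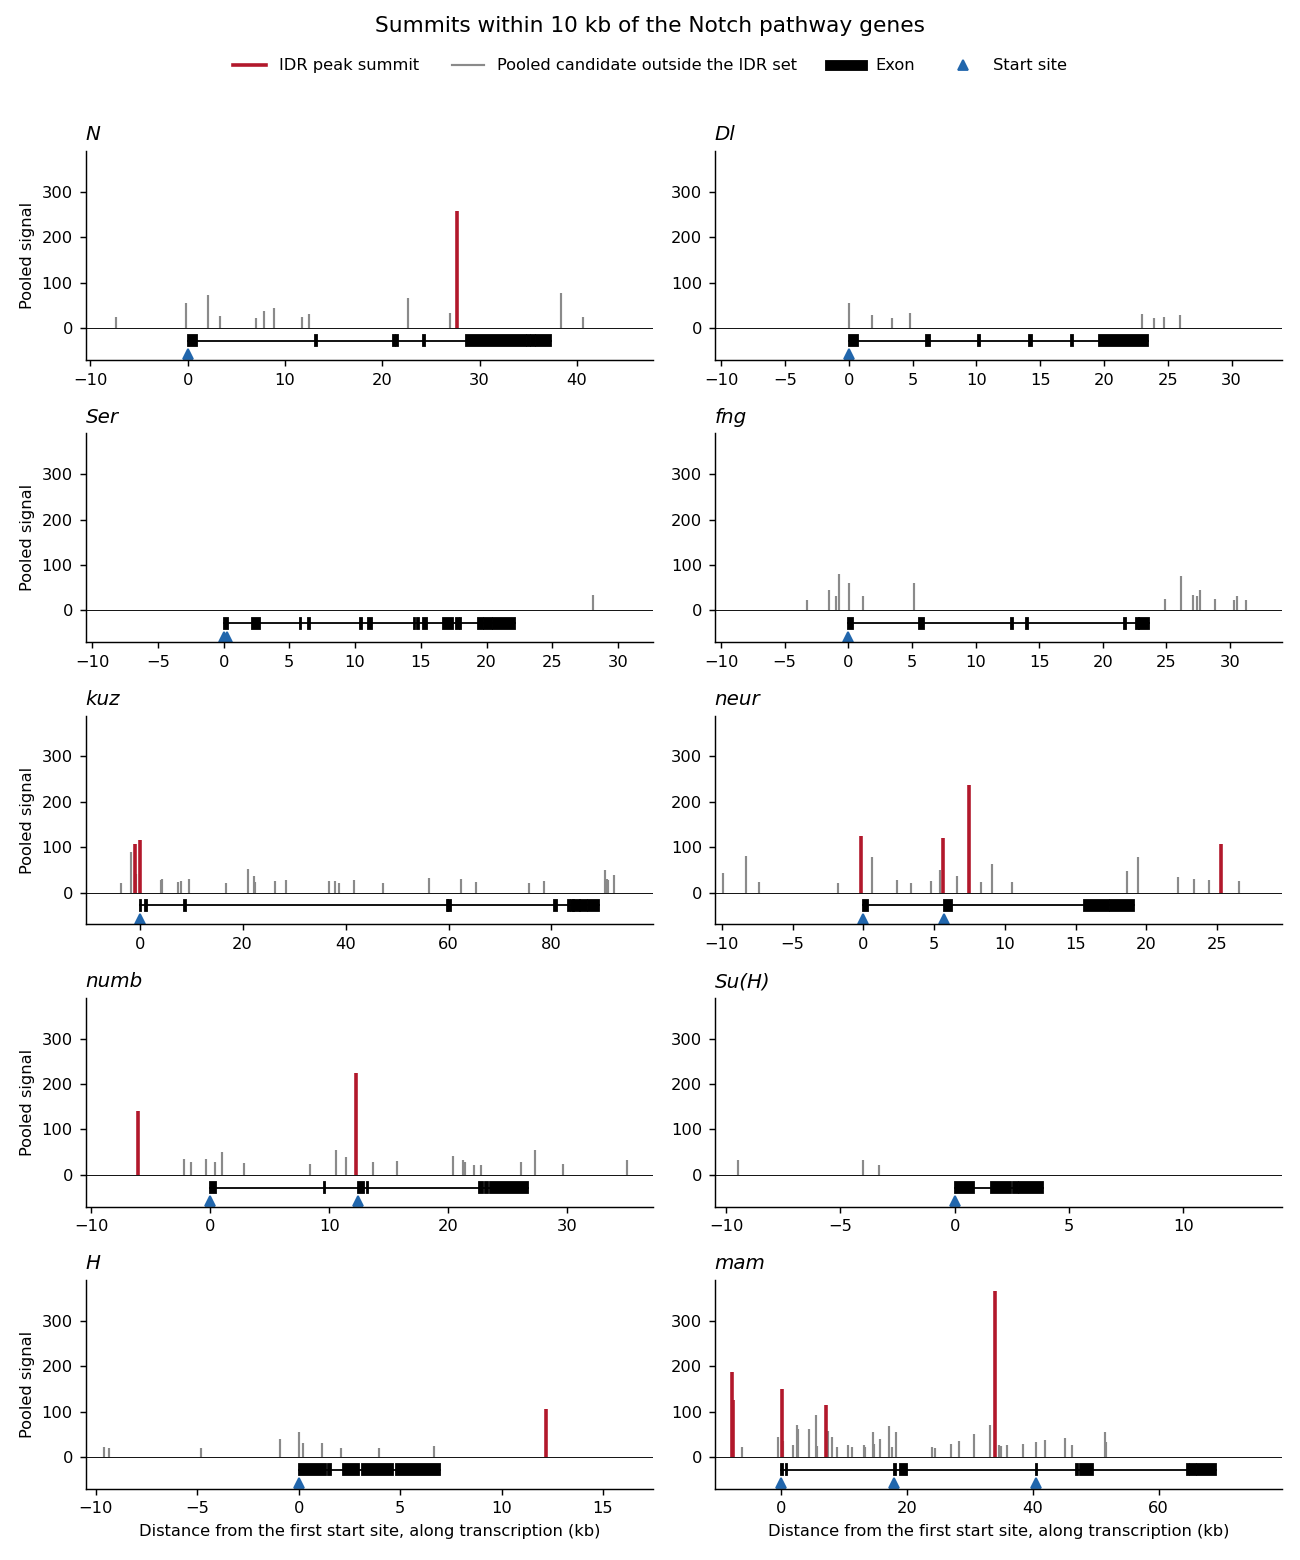
Pooled signal (the authors' score) of summits within 10 kb of each Notch pathway gene against distance from its first TSS along transcription (kb), with IDR summits in red, other pooled candidates in grey, exons as black boxes and start sites as blue triangles. The tallest bars of N, neur and mam (257.9, 236.4 and 366.6) stand inside the genes, that of numb (225.3) at its internal start site, and Dl, Ser, fng and Su(H) have no red bar.

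In all, 15 IDR summits lay within 10 kb of the 10 genes: 5 at their promoters, 4 in their introns, 4 upstream and 2 downstream. Of the 5 promoter summits, 3 lay upstream of the TSS and 2 downstream. Of the 6 summits outside the genes, 5 lay within 500 bp of the TSS of a neighbour (CG8067, scat, B4 and Kcmf1), so the distance of 10 kb alone does not tie them to a Notch pathway gene. The signal of the 15 ran from 106.6 to 366.6 with a median of 126.0, against 146.0 over all IDR peaks, and their median rank was 1989. The strongest of them, in mam, held rank 244.

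Each of the 15 summits had an entry within 100 bp in both replicates, against 2936 of all 3106 IDR summits (94.5%). The set holds the highest entries of the list pooled from both replicates, so such matches are favoured by its making. Not every IDR peak was matched in both, so membership does not show that the replicates agree at a given peak. The log2 ratio of replicate 3 to replicate 2 had a median of -0.09 over the 15 summits (SD 0.59), against -0.07 over all IDR summits (SD 0.62). Of the 15, 10 had the higher signal in replicate 2 and 5 in replicate 3, each list on its own scale. For N, H and mam the ratio lay between -0.24 and -0.03, and for neur it ran from -0.09 in the intron to 0.69 at the second TSS. The widest gaps were at numb (-0.85 at its promoter and -1.43 near scat) and at kuz (0.75 at its promoter and 0.85 near B4). The numb summits were thus the higher ones in replicate 2 and the kuz summits in replicate 3.

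**Figure D3:**
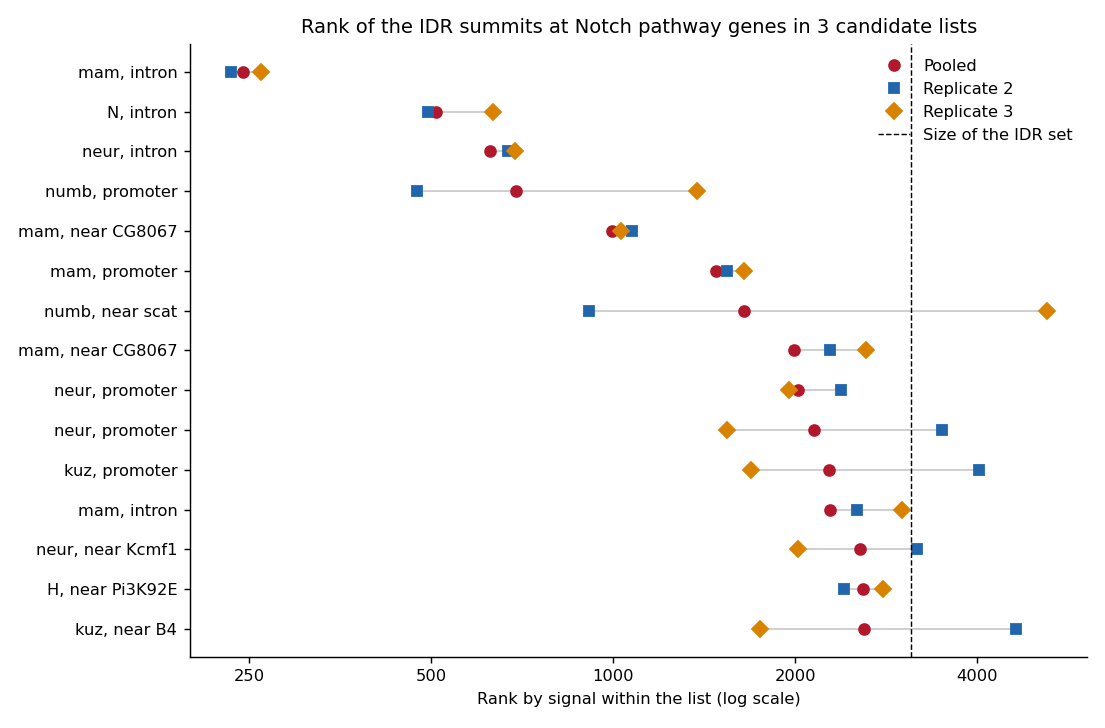
Rank by signal (log scale, strongest at the left) of the 15 IDR summits within 10 kb of Notch pathway genes in the pooled list (red circles), replicate 2 (blue squares) and replicate 3 (orange diamonds), with the 3106 entries of the IDR set as a dashed line. The strongest intron summits of mam, N and neur rank close together in the 3 lists, whereas the numb summits stand to the right in replicate 3 and the kuz summits to the right in replicate 2.

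The 10 genes held 171 pooled candidates within 10 kb, of which 91 lay in introns, 18 at promoters, 26 upstream and 29 downstream, and the rest in exons. mam had 43, kuz 30, neur 23 and numb 22, while Su(H) had 3 and Ser 1. By rank these candidates were spread like the whole pooled list. Of the 171, 15 (8.77%) were in the IDR set, against 10.4% of the list, and 39 (22.8%) held ranks 3107 to 10000, against 23%. Ranks 10001 to 20000 took 58 (33.9%), against 33.3%, and the remaining 59 (34.5%) ranked lower, against 33.3%. Support by the replicates was also close to the list: 61 (35.7%) had an entry within 100 bp in both, against 35.8%, and 25 (14.6%) in neither, against 13.2%. The strongest candidate outside the IDR set, at 92.9 (rank 3206), lay in a mam intron, and the next, at 89.2 (rank 3424), upstream of kuz near B4.

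Per length of intron the 8 long-intron members ran from empty to dense. neur had 6.07 pooled summits per 10 kb of intron, mam 5.64 and numb 5.05. These stood above the upper quartile of 4.51 over all 1376 genes with at least 10 kb of intron, and N (3.68) and kuz (2.56) above the median of 1.85. Dl (1.65) and fng (0.923) lay below the median, and Ser had 0. neur and mam were also the densest of the 8 in each replicate list, and Ser stayed at 0. neur had 5.40 in replicate 2 and 6.75 in replicate 3, mam 4.31 and 6.30, and numb 3.67 and 5.96. The medians over all such genes were 2 and 1.81, and the upper quartiles 4.17 and 4.07. In replicate 2 numb thus lay below the upper quartile, unlike neur and mam. Dl lay on different sides of those medians, with 1.10 in replicate 2 and 3.30 in replicate 3.

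**Figure D4:**
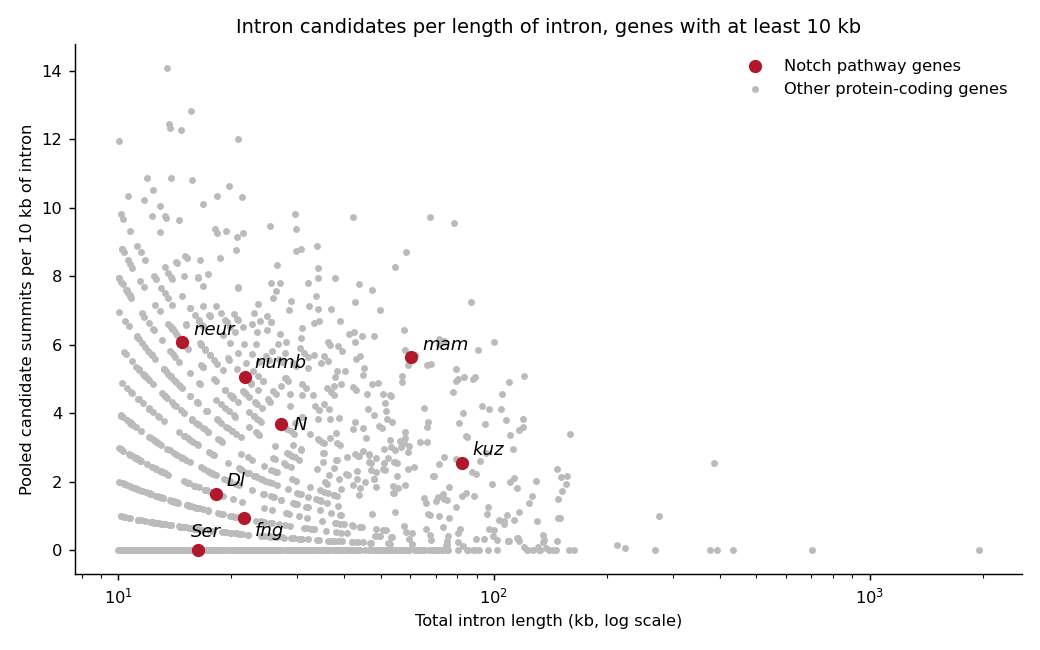
Pooled candidate summits per 10 kb of intron against total intron length (kb, log scale) for the 8 Notch pathway genes with at least 10 kb of intron (red, named) and the other protein-coding genes of that kind (grey). neur, mam and numb lie highest among the 8 (6.07, 5.64 and 5.05) and Ser at 0, while grey points at short intron length fall on lines because each is a whole number of summits.

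The DNA within 50 bp of the 15 summits was searched on both strands for short motifs of known factors. Its G and C share had a median of 36.6% (mean 37.6%, SD 10.9), against a median of 34.7% (mean 35.9%, SD 9) at all IDR summits. The AT-rich end held the intron summits of N (24.8%), mam (24.8% at rank 244) and neur (25.7%) and the mam upstream summit at rank 1989, near CG8067 (25.7%), while the other mam intron summit had 35.6%. At the GC-rich end were both kuz summits (56.4% and 57.4%). A share of 25.7% or less was found at 419 of 3106 IDR summits (13.5%). This cutoff is the value at the neur intron summit, so the strong intron summits of N, mam and neur meet it by its choice. Of the 1419 that lie over 500 bp from any TSS of a protein-coding gene, 195 had such a share (13.7%). No member summit held the Su(H) core GTGGGAA, against 0.901% of all IDR summits, and 1 held the related GTGAGAA, the mam intron summit at rank 2284, against 1.13%. The BEAF-32 core CGATA lay at 2 summits, N and H, against 18.1%, and the DRE TATCGATA, which contains that core, at none, against 2.64%. The E-box CAGCTG, bound by proneural proteins among others, lay at 3 (neur at its second TSS, numb near scat and mam near CG8067), against 4.89%. GAGAG, bound by GAGA factor, lay at 2 (neur at its second TSS and mam at rank 2284), against 10.4%. The Zelda motif CAGGTAG, the E-box CACGTG and the CTCF core AGGGGGC or AGGTGGC lay at none, against 0.547%, 0.869% and 2.32%. In all, 6 of 15 windows held at least 1 of these motifs, against 34.2% of IDR windows. A match is a run of letters and does not show that a factor binds there.

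Other genes of the pathway were taken from a list of 74 names, of which 72 were matched to the annotation. Of these, 18 (25%) had an IDR promoter summit, against 15.8% of all genes, and 9 had an IDR intron summit, against 4.97% of all genes. Of the 13 with at least 10 kb of intron, 7 had an IDR intron summit, against 30.7% of such genes. A pooled promoter candidate was present at 47 of the 72, against 50.3% of all genes. The strongest promoter summits of the 18 genes rest on 17 peaks, because AP-2alpha and ebi share one. Receptor processing and glycosylation had 3 of 11, led by Fur1, a furin-type protease, with a signal of 558.6 (rank 95; 291.8 in replicate 2 and 269.7 in replicate 3). rumi, which adds O-linked glucose to the receptor, had 255.6 (rank 519), and aph-1, a subunit of gamma-secretase, 202.0 (rank 865). Trafficking and ubiquitin genes had 5 of 13, led by Su(dx), a ubiquitin ligase that acts on the receptor, with 622.4 (rank 75; 309.2 in replicate 2 and 314.3 in replicate 3). In the same class lgd, an endosomal regulator of receptor activation, had 595.3 (rank 85; 365.5 in replicate 2 and 232.3 in replicate 3), and AP-2alpha, a clathrin adaptor subunit, had 189.7 (rank 964). In the whole wider list, 5 genes had a promoter signal above that of numb (225.3), the highest of the 10 core genes: Su(dx), lgd, Fur1, gro and rumi.

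Nuclear cofactors had 2 of 9: gro, the corepressor Groucho, with 460.0 (rank 147; 274.6 in replicate 2 and 195.1 in replicate 3), and ebi with 189.7. Genes whose IDR summits lay in introns are named after their values were seen. The corepressor genes Smr and CtBP had IDR summits in introns, with signals of 344.1 (rank 276) and 114.5 (rank 2318). The E(spl) complex is a cluster of Notch target genes on 3R from 25997621 to 26041008. Of 12 listed genes in it, 2 had an IDR promoter summit: E(spl)m7-HLH with 178.8 (rank 1065) and E(spl)m3-HLH with 159.1 (rank 1329). The Bearded family had 0 of 4, and other target genes 0 of 6, although sim (235.5, rank 630) and ct (163.7, rank 1258) had IDR summits in introns. Proneural genes and their partners had 2 of 7, da with 100.2 (rank 2862) and emc with 106.5 (rank 2604). The emc summit was uneven, with 17.2 in replicate 2 (rank 18797) and 90.9 in replicate 3 (rank 1074). Genes of asymmetric division had 4 of 10; the strongest were at par-6 (217.8, rank 731), aPKC (167.8, rank 1195) and brat (113.6, rank 2345), which act in cell polarity or as a fate determinant. brat also had 3 IDR summits in introns, the strongest at 337.9 (rank 292).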

How the data were processed

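Per the labels, the authors sonicated chromatin from embryos of the CG4854-eGFP line, immunoprecipitated it with an anti-GFP antibody and sequenced it on Illumina HiSeq instruments. They deposited dm6 peak lists in narrowPeak format: 1 per replicate, 1 from pooled alignments and the IDR set. Column 7 of these deposited files is the authors' signal per peak, and column 10 the deposited summit offset. Which aligner, peak caller and IDR threshold they used, and how many reads they had, is not given in the sources used here. Lists on dm3 were left out. Candidate widths were nearly constant (404 bp for 93.7% of the pooled list, 396 bp for 97% of replicate 2 and 410 bp for 97.1% of replicate 3).

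Summits were placed on Ensembl release 115 genes (BDGP6 version 54) with Python 3.11.15 and NumPy 2.4.6; figures used matplotlib 3.10.9. A promoter summit lay within 500 bp of any TSS of a protein-coding transcript, an intron summit outside these windows and outside the exons of all transcripts of the gene, and a distance of 10 kb was counted from either end of the gene. Replicate entries were matched to pooled summits within 100 bp. The lists of genes and motifs and the rule for named genes (all 10 members, every IDR summit in or near them, and up to 3 wider genes per role by signal) were chosen with earlier results of these data known. No name matched BobB or BobC. With 1 group no test was run, and the main counts are set beside the share of all genes. The procedures were tested on simulated positions. Alternatives changed the TSS window, the distance, the intron definition, the matching distance, the sequence window and the peak set, and left out each replicate.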

Additional observations from a re-analysis of the deposited data

How the results depend on the processing

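Members with an IDR promoter summit numbered 4 with a TSS window of 250 bp (against 13% of all genes) or 1000 bp (18.3%), and 2 (numb and mam) in the stronger 1553 peaks (8.79%). The count of 6 summits with a motif was 3 with 25 bp and 11 with 100 bp on each side, against 18.5% and 58.8% of all IDR windows. With the 3106 strongest entries of 1 replicate in place of the IDR set, promoter counts were 4 without replicate 2 (15.3% of all genes) and 3 without replicate 3 (16.5%). Counts within 10 kb were then 6 (52.6%) and 5 (53.5%); kuz was lost without replicate 3. Intron counts stayed at 3 under all 5 alternatives tried. The share of all genes was 2.79% in the stronger peaks, 4.95% without replicate 2 and 4.85% without replicate 3. No share was computed for the alternatives that changed the intron definition or left out summits near other start sites. These shares cover genes of any intron length. Against genes with at least 10 kb of intron the main count was near the share (3 of 8 against 30.7%). That comparison was not repeated at these settings. Counts within 10 kb were 5 at 5 kb (40%), 4 around start sites alone (49.2%) and 4 in the stronger peaks (35.3%). Of the 72 wider genes, those with an IDR promoter summit numbered 15 at 250 bp, 22 at 1000 bp and 13 in the stronger peaks. They numbered 18 with either replicate alone, against 18 in the main count. The shares of all genes at these settings are those given above for the promoter counts of the members. Matches in both replicates were 11 of 15 at 50 bp and 15 of 15 at the wider matching distance tried. The share of all IDR summits was not computed at these distances. Whether the lower count at 50 bp is particular to these summits therefore cannot be said. Signals of 1 replicate were lower than pooled ones at the strongest summit of every member matched there; the cause was not tested. No paired analysis was possible because all samples belong to 1 group. Depth, and so the weakest binding that could be seen, is unknown.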

Other observations

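The E(spl) complex, 43.4 kb long on 3R, held 17 pooled summits and 3 IDR summits. No rate over other regions of that length was set beside these counts, so they cannot be called many or few. gro, which carried one of the strongest promoter peaks among the wider genes, lies just beyond the complex at 26041736 to 26049911.

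Short words more frequent at strong peaks than at weak candidates were picked after their values were seen, so their frequencies are descriptions. The word GTTGCCAA lay within 50 bp of 25 of the 300 strongest summits (8.33%), against 0.58% of 15000 weak pooled candidates. It lay at 1.96% of all IDR summits and at 0 of the 15 summits of the Notch pathway genes. The word TTAAAA lay at 37.3% of the 300 strongest summits, against 19.1% of the weak candidates. It was found at 5 of the 15 member summits (N, numb near scat, and mam at ranks 244, 994 and 1989), against 28.7% of all IDR summits.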
